A study of Mus musculus with 2 samples.

Results

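Transcript levels of 7 genes linked to mitral valve prolapse, or close partners of such genes, were compared between mitral valves of wild-type mice and of a mouse model of Marfan syndrome. The 7 genes, Flna, Dchs1, Fat4, Dzip1, Tns1, Lmcd1 and Glis1, were chosen by symbol among 33640 genes in the deposited table, and all 7 were found there. There was 1 library per genotype, made from the pooled RNA of 8 valves of male and female mice at 5 months of age. One pool was wild type and the other came from mice heterozygous for the C1039G allele of Fbn1 (Fbn1C1039G/+), a germline missense allele of fibrillin-1. No other allele and no treatment is named in the labels, which do not give the strain. With 1 library per genotype there was no replicate, so values carry no error and no test was possible, and every difference is a difference between these 2 libraries.

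In mitral valve prolapse the leaflets thicken, elongate and billow into the left atrium, and fibrillin-1 mutations cause it as part of Marfan syndrome. Families with inherited, non-syndromic valve disease have carried mutations in FLNA, which encodes the actin cross-linker filamin A, in DCHS1, which encodes a giant protocadherin, and in DZIP1, which encodes a protein at the base of the primary cilium. Human association studies placed common risk variants near TNS1, LMCD1 and GLIS1. Fat4 is the protocadherin that binds Dachsous 1 on the neighbouring cell, a contact that orients cells within a tissue. In mice, valve interstitial cells depend on filamin A and Dachsous 1 while the leaflets are shaped in development.

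Values are TPM, which corrects abundance for transcript length and for the size of the library. Levels are set side by side between genes on this scale, but the RNA was amplified and the annotation is not given. How far either bears on comparisons between genes was not tested. Differences are those of log2(TPM + 1), the mutant value less the wild-type one, and a difference of at least 1 in size is called 2-fold. The depth of both libraries is unknown, since TPM does not retain it. The 17004 genes averaging at least 1 TPM over both pools serve as background. Most of them had slightly more TPM in the mutant pool, with a median difference of 0.14, and 64.9% of them lay above 0. The pools also differed in cell markers. Of 10 monocyte and neutrophil markers all 10 had more TPM in the mutant pool, 7 of them at least 2-fold, with differences from 0.13 to 3.87. They summed to 42.9 TPM in wild-type valves and 307 TPM in mutant valves. Of this sum Lcn2 alone took 9.95 and 156 TPM, and S100a9 2.34 and 48.0 TPM. Plac8 was listed at 0 in the wild-type pool. Of 10 macrophage markers 9 were higher in the mutant pool, summing to 2104 and 2504 TPM. Of 12 cardiac muscle markers 10 were lower, summing to 2977 and 2181 TPM. Of 8 T cell markers 6 were lower, 4 of them at least 2-fold, with a median difference of −1.02; they summed to 229 and 206 TPM, of which Thy1 alone took 143 and 152 TPM. The red blood cell and platelet markers summed to 6972 and 911 TPM, with the 4 globin genes at least 2-fold lower. Of the platelet genes, Pf4 was at 153 and 213 TPM and Itga2b at 5.41 and 5.38 TPM. Ppbp was lower in the mutant pool, at 11.6 and 5.61 TPM, as was Gp9, at 0.780 and 0.602 TPM, below the filter. Apart from Plac8, no member of these marker lists was listed at 0 in either pool. In such bulk samples fewer cells of a type and less RNA per cell cannot be told apart. The part of these shifts in the values below was not tested.

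Markers of valve interstitial cells, the fibroblast-like cells of the leaflet, were set beside the tissue label. All 12 were found in both pools, summing to 18637 TPM in wild-type valves and 18364 TPM in mutant valves, 6 of them higher and 6 lower in the mutant. Decorin (Dcn), a small proteoglycan, was the most abundant at 11409 and 9304 TPM. Cardiac muscle transcripts such as Tnnt2, at 744 and 506 TPM, were also present in both pools. No other tissue was compared, so these markers do not single out mitral valve.

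Of the 7 genes, 6 passed the abundance filter and none of the 6 was 2-fold different. The background was 6.53% of genes, with 4.81% higher and 1.72% lower in the mutant pool, so a count of 0 among 6 genes is near it. Flna was the 1 gene of the 6 with more TPM in the mutant pool. Fat4, Lmcd1 and Dchs1 had less, by 0.38 to 0.52 on the log2 scale, while Dzip1 and Tns1 were near 0, at −0.06 and −0.04. The median over the 6 genes was −0.22, beside 0.14 for all tested genes, and 5 of the 6 lay below 0, against 35.1% of all tested genes. After centring on the median 46.5% of all tested genes lay below 0, and under quantile normalization 51.5%, while 5 of the 6 did so in both. Both scalings lowered the values of these 6 genes, so the negative ones could not have turned, and this is no test. The genes were also chosen with earlier results of these data known. Glis1 was below the filter, at 0.392 TPM in wild-type valves and 0.444 TPM in mutant valves.

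**Figure D1:**
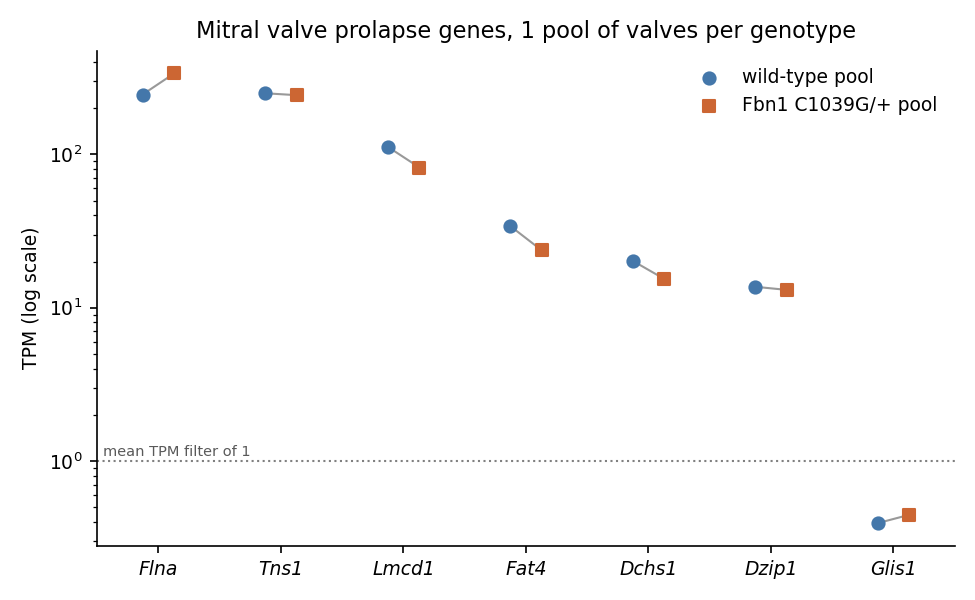
TPM on a log scale of the 7 genes in the wild-type pool (circles) and the Fbn1 C1039G/+ pool (squares), 1 library each, so without error bars. Flna and Tns1 are the most abundant, at 246 and 251 TPM in wild-type valves, and Glis1 lies below the dotted line at 1 TPM in both pools.

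The levels spanned a wide range and kept nearly the same order in both pools. In the wild-type pool the order from high to low was Tns1, Flna, Lmcd1, Fat4, Dchs1, Dzip1 and Glis1, and in the mutant pool Flna stood above Tns1, with the rest in the same order. By mean TPM Flna was the 350th and Tns1 the 428th most abundant of all genes in the table, and Dzip1 the 8938th. Without replicates it cannot be said which neighbours in this order differ beyond their spread.

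Flna encodes filamin A, which cross-links actin filaments and tethers integrins and other membrane proteins to them. It was at 246 TPM in wild-type valves and 339 TPM in mutant valves, a ratio of 1.38 and a difference of 0.46. The mutant pool was thus the higher one, and 22.4% of all tested genes had a larger positive difference. Among the 3035 genes with a mean TPM from 50 to 500, 14.1% did, so the value lay inside the central 90% of those genes, which ran from −0.40 to 0.67. The gene lies on chromosome X at 74223461 to 74249820 (mm10, minus strand, ENSMUSG00000031328.15). Because it is X-linked and the pools mix both sexes in proportions the labels do not give, the 4 Y-linked genes are set beside it. All 4 had more TPM in the mutant pool, with Uty at 44.8 and 64.5, Ddx3y at 13.6 and 20.9, Kdm5d at 18.1 and 26.1, and Eif2s3y at 24.7 and 32.0 TPM. Whether the share of male tissue, or the higher monocyte and macrophage markers given above, bear on the Flna value was not tested.

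Tns1 encodes tensin 1, a focal adhesion protein that binds actin and the cytoplasmic tail of beta integrins. It was at 251 TPM in wild-type valves and 244 TPM in mutant valves, a ratio of 0.971 and a difference of −0.04. These 2 values were close, and 69.1% of all tested genes had a more positive difference. The gene lies on chromosome 1 at 73910231 to 74124449 (minus strand, ENSMUSG00000055322.15). Flna and Tns1 were at almost equal levels in the wild-type pool, with a Flna to Tns1 ratio of 0.980, and the ratio was 1.39 in the mutant pool. This pair was set side by side after the values were seen.

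Fat4 encodes a giant protocadherin that binds Dachsous 1 across cell contacts. It was at 34.2 TPM in wild-type valves and 23.6 TPM in mutant valves, a ratio of 0.691 and a difference of −0.52, the most negative of the 7 genes. The mutant value was the lower one, and 5.79% of all tested genes were lower still. Among the 6917 genes with a mean TPM from 10 to 50, 3.60% were lower, so Fat4 lay outside the central 90% of that range, −0.44 to 0.79. The gene lies on chromosome 3 at 38886940 to 39011985 (plus strand, ENSMUSG00000046743.6), and its longest coding transcript spans 16109 bases in 17 exons.

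Dchs1 encodes Dachsous 1, the partner of Fat4. It was at 20.2 TPM in wild-type valves and 15.4 TPM in mutant valves, a ratio of 0.760 and a difference of −0.38. The mutant value was again the lower one, with 9.31% of all tested genes and 6.74% of genes from 10 to 50 TPM lower still, inside the central 90%. The gene lies on chromosome 7 at 105752990 to 105787654 (minus strand, ENSMUSG00000036862.15). The pseudogene Gm15645 overlaps it on the other strand, at 1.999 and 4.51 TPM, and whether counting used strand is not given in the sources used here. Both partners had less TPM in the mutant pool, so that the ratio of Fat4 to Dchs1 was 1.69 in wild-type valves and 1.54 in mutant valves.

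Lmcd1 encodes a protein with LIM and cysteine-rich domains, also called dyxin, which binds the transcription factor GATA6 and restrains it. It was at 112 TPM in wild-type valves and 82.2 TPM in mutant valves, a ratio of 0.731 and a difference of −0.45. The mutant value was the lower one, with 7.33% of all tested genes and 3.89% of genes from 50 to 500 TPM lower still, so it lay outside the central 90% of that range. The gene lies on chromosome 6 at 112273758 to 112330425 (plus strand, ENSMUSG00000057604.9), with 1 annotated transcript of 6 exons. Lmcd1 is also expressed in heart and skeletal muscle, and the cardiac muscle markers had a median difference of −0.43 in the same libraries. Gata6 was at 50.2 and 46.7 TPM. The part of muscle tissue in the Lmcd1 value was not tested.

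Dzip1 encodes a zinc finger protein of the ciliary base that takes part in cilium assembly and Hedgehog signalling. It was at 13.7 TPM in wild-type valves and 13.1 TPM in mutant valves, a ratio of 0.954 and a difference of −0.06. The pools were close, and 28.7% of all tested genes had a more negative difference. The gene lies on chromosome 14 at 118875520 to 118925460 (minus strand, ENSMUSG00000042156.16). Glis1, a Krüppel-like zinc finger factor related to the Gli proteins (chromosome 4, 107434591 to 107635061, plus strand, ENSMUSG00000034762.9), had the values under 1 TPM given above. Its difference of 0.05 turned to −0.06 when differences were centred on the median, and no direction is given for it.

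**Figure D2:**
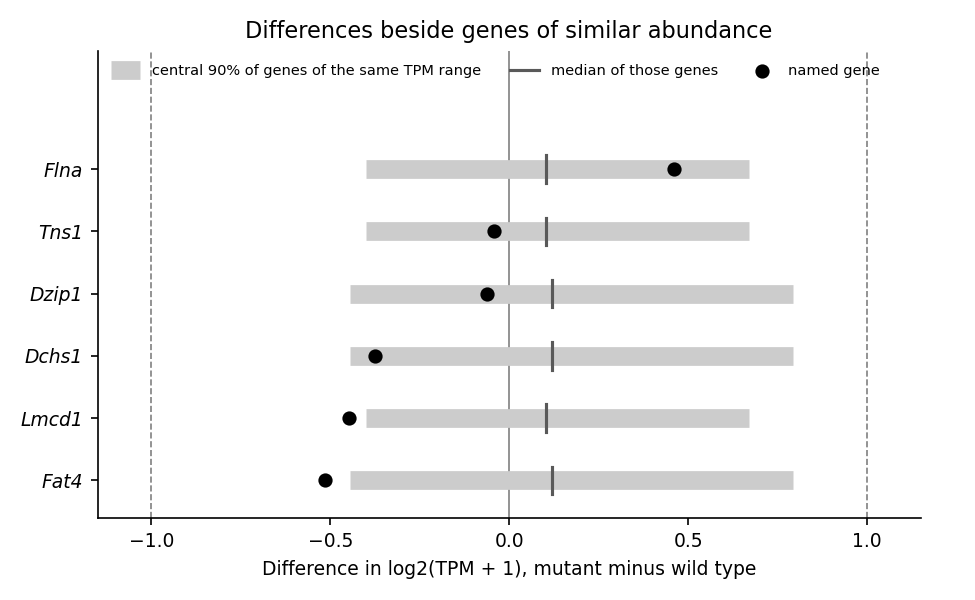
Mutant-minus-wild-type difference of log2(TPM + 1) of the 6 genes above the abundance filter (points), beside the central 90% (grey bar) and median (tick) of genes of the same TPM range, 10 to 50 for Fat4, Dchs1 and Dzip1 and 50 to 500 for Lmcd1, Tns1 and Flna. Fat4 at −0.52 and Lmcd1 at −0.45 lie left of their bars, the other 4 lie inside, and none reaches the dashed lines at 2-fold.

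Sequences before a RefSeq start site are shown for the gene that was higher and for the 2 with the largest negative differences, for their letters only. They come from RefSeq promoter windows on GRCm38.p6, which held 6 of the 7 genes (not Dchs1), and were limited to the 250 bases before the start site, less any base in an annotated exon of the gene. The RefSeq start used for Flna is internal to the GENCODE gene, whose longest annotated extent begins further upstream, so the Flna window lies within the gene. Capitals mark the motifs searched on both strands, namely the TEAD motif GGAATG, the CArG box bound by serum response factor, the GLI motif TGGGTGGTC, the TATA box TATAAA and the CCAAT box.
Flna, chrX:74246556-74246784, minus strand: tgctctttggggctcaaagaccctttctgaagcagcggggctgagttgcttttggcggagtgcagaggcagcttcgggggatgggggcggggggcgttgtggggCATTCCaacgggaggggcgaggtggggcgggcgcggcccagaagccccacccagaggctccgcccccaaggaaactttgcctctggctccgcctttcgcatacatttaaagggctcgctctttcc
Fat4, chr3:38886690-38886939, plus strand: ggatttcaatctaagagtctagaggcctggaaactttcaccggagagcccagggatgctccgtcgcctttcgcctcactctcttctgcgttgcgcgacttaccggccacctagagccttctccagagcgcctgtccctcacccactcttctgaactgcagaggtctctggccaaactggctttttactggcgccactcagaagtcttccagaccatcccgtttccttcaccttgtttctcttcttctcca
Lmcd1, chr6:112273508-112273757, plus strand: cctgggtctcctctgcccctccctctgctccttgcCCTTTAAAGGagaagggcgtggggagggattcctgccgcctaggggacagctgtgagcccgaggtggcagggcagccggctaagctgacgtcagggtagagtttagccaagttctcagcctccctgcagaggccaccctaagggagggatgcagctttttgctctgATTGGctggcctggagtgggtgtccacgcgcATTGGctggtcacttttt
The Flna window held 1 TEAD motif, read on the opposite strand, at 146 to 141 bases before the start; such a motif stood in 12.6% of all 32851 windows of the table. The Lmcd1 window held 1 CArG box, present in 1.47% of all windows, at 215 to 206 bases before the start, and 2 CCAAT boxes on the opposite strand, present in 33.9%. None of these motifs occurred in the Fat4 window. No motifs overlapped in these windows.

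Paralogs were set beside the genes of their family. Among the 12 paralogs, 11 passed the filter and none was 2-fold different. Their median difference was 0.09 and turned negative, to −0.020 and −0.079, when differences were centred on the median or the libraries were quantile normalized, and to −0.060 over genes averaging at least 5 TPM. Flnc, the filamin of striated muscle, was at 7.12 and 7.65 TPM, and its difference of 0.09 turned negative under the same 2 scalings. Flna was the more abundant of this pair in both pools.

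The Fat cadherins differed in both directions. Fat1 had more TPM in the mutant pool, at 51.9 and 75.2 TPM, a difference of 0.53, while Fat4 had less. Fat3 was at 10.4 and 9.43 TPM, and Fat2 was at 0.0158 and 0.0126 TPM, below the filter. The share of Fat4 in the summed TPM of the 4 Fat genes was 35.4% in wild-type valves and 21.8% in mutant valves. The ratio of Fat4 to Fat1, a pair singled out after the values were seen, was 0.658 and 0.314. Dchs2, the second Dachsous gene, was at 2.36 and 3.40 TPM, a difference of 0.39, and Dchs1 was the more abundant in both pools.

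Among the tensins, Tns2 was at 71.6 and 65.5 TPM, Tns3 at 62.0 and 51.0 TPM, a difference of −0.28, and Tns4 at 5.51 and 5.25 TPM. All 4 tensins thus had somewhat less TPM in the mutant pool, 390.04 TPM in sum against 365 TPM. Their signs did not change under any scaling tried, but each scaling lowered the summed difference, so this is no test of the signs. Dzip1l, the paralog of Dzip1, had more TPM in the mutant pool, at 9.40 and 12.7 TPM, a difference of 0.40. The Glis family was represented mainly by Glis2, at 81.9 and 76.9 TPM. Glis3 was at 4.34 and 5.14 TPM, and its difference of 0.20 turned slightly negative under quantile normalization.

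**Figure D3:**
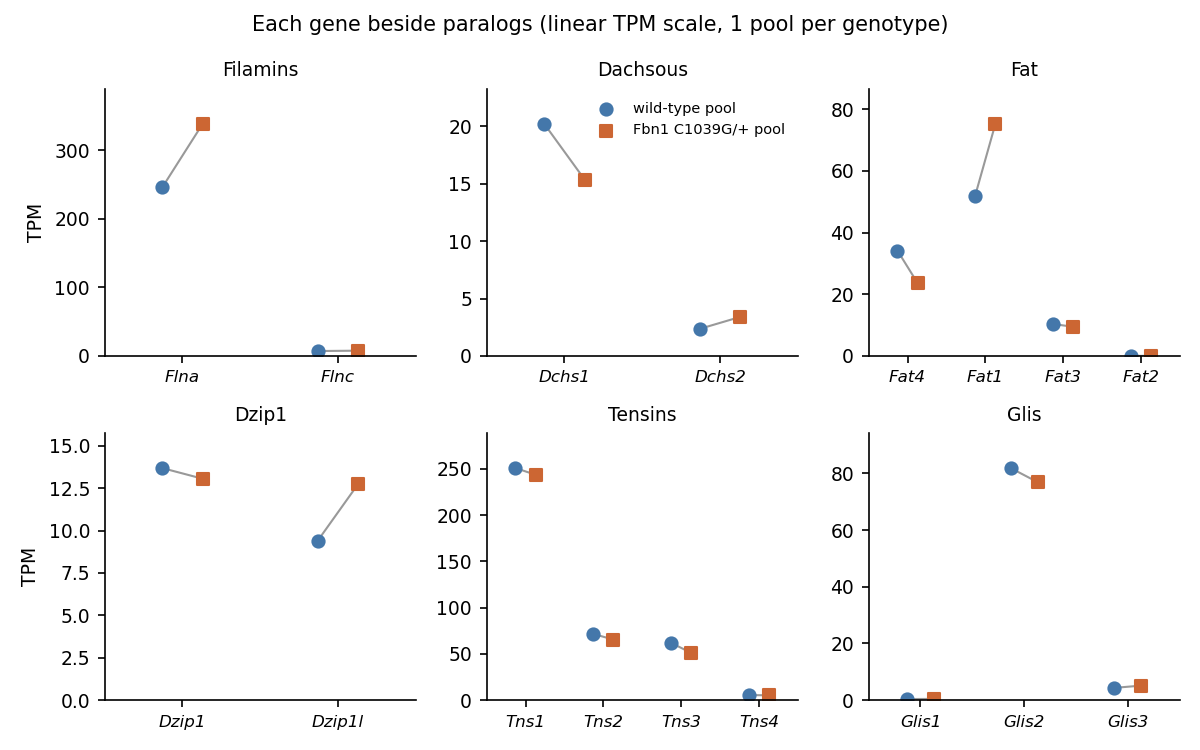
TPM on a linear scale of each gene and its paralogs (for Flna, Flnc alone) in the wild-type pool (circles) and the mutant pool (squares), 1 library each. Fat4 and Fat1 slope in opposite directions, Flna slopes up, and Glis2 far exceeds Glis1.

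Partners of filamin A and of tensin were read as 2 lists. Of 17 filamin partners 9 were higher and 8 lower in the mutant pool, none 2-fold, with a median of 0.05, below the 0.14 of all genes, that turned to −0.058 when centred and to just under 0 without mitochondrial, globin, ribosomal protein and predicted genes. Vim, the intermediate filament protein vimentin, was at 2797 and 3167 TPM and Actb, cytoplasmic actin, at 1999.5 and 1789.5 TPM. Among partners averaging at least 5 TPM, the largest differences were those of the tyrosine kinase gene Src, at 7.07 and 13.3 TPM, and of Arhgap24, a Rac-inhibiting filamin partner, at 12.04 and 15.8 TPM. Of 25 tensin and focal adhesion partners 20 were higher and 5 lower, none 2-fold, beside 64.9% of all tested genes above 0. Their median was 0.21, beside 0.14 for all genes. It stayed above 0 under every alternative, down to 0.076 under quantile normalization. Fn1, fibronectin, was at 196 and 268 TPM, the fibronectin receptor subunit gene Itga5 at 28.7 and 45.4 TPM and Zyx, the adhesion protein zyxin, at 149 and 208 TPM, whereas the small GTPase gene Rhoa was at 287 and 284 TPM. Tns1 and its own family lay on the other side of 0 from most of these partners, as they did from most tested genes of any kind.

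Around Dchs1 and Fat4, 19 of 21 planar polarity genes found in the table passed the filter, 13 higher and 6 lower in the mutant pool and none 2-fold. Their median of 0.10 turned to −0.0094 when centred and to −0.070 under quantile normalization. The noncanonical Wnt receptor gene Ror2, at 3.18 and 6.94 TPM, and the noncanonical ligand gene Wnt11, at 11.7 and 21.04 TPM, had the largest differences. The ligand gene Wnt5a was at 46.1 and 53.9 TPM, and Lix1l, the most abundant of the list, at 85.5 and 78.1 TPM. Hippo pathway genes and targets of its effector YAP had 14 of 21 higher and 7 lower, none 2-fold, and their median of 0.08 turned to −0.028 when centred and −0.067 under quantile normalization. The YAP target gene Ctgf was at 298 and 401 TPM and Amotl2, another target, at 7.48 and 13.4 TPM. The targets Ankrd1, at 64.8 and 49.4 TPM, and Cyr61, at 69.8 and 64.8 TPM, were lower in the mutant pool. The coactivator gene Wwtr1 was at 111 and 110.1 TPM, and Vgll4, an inhibitor of TEAD factors, was lower at 61.4 and 35.1 TPM, a difference of −0.79.

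Of 24 primary cilium genes 17 were higher and 7 lower in the mutant pool, none 2-fold, with a median of 0.13 beside 0.14 for all genes, which turned to −0.013 under quantile normalization. Pkd2, a ciliary calcium channel gene, was at 145 and 142 TPM and Ift20, of the intraflagellar transport machinery, at 86.8 and 79.4 TPM. The exocyst gene Exoc5 had the largest difference, at 27.8 and 48.9 TPM. Of 14 Hedgehog pathway genes above the filter 8 were higher and 6 lower, and their median of 0.07 turned to −0.039 when centred and −0.12 under quantile normalization. Gli1, a transcription factor gene that is itself a Hedgehog target, was the 1 gene of this list past 2-fold, at 3.56 and 11.4 TPM, a difference of 1.44 that was 0.94 with a pseudocount of 5. That is 1 of 14 genes, beside 6.53% of all tested genes. Ptch1, the other classical target, was at 15.6 and 20.2 TPM. The ligand gene Dhh was at 12.3 and 10.2 TPM. The ligand genes Shh and Ihh were at or under 0.243 TPM in both pools, with Ihh listed at 0. The co-receptor gene Gas1 was at 103 and 67.3 TPM and Smo, the signal transducer, at 68.7 and 58.4 TPM. Plac8, Pf4, Itga2b, Ppbp, Gp9, Ankrd1, Cyr61, Gata6, Ptch1, Dhh, Shh and Ihh were named after their values were seen.

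LIM-only proteins and the GATA and calcineurin genes that Lmcd1 acts with were split evenly, 11 of 22 higher and 11 lower, with a median of 0.00 that turned negative under 4 alternatives, down to −0.11. Crip1, a small LIM protein gene, was at 1881 and 2211 TPM and Crip2 at 323 and 319 TPM. Tes, the LIM protein testin of focal adhesions, was the 1 gene of this list past 2-fold, at 12.9 and 29.4 TPM, beside 6.53% of all tested genes. Its difference of 1.13 was under 2-fold with a pseudocount of 5, at 0.94, and under quantile normalization, at 0.99. Csrp3, the LIM protein of cardiac muscle, was at 90.8 and 52.4 TPM, beside the lower cardiac muscle markers.

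Other genes of inherited valve and connective tissue disease had 20 of 28 members higher and 8 lower in the mutant pool, none 2-fold. Their median was 0.17, beside 0.14 for all genes, of which 64.9% lay above 0. Fbn1, the mutated gene, was at 108 and 126 TPM. The allele is a missense change, so its RNA level does not check the labels. Bgn, the X-linked biglycan gene, was at 5396 and 5161 TPM, Col3a1 at 760.2 and 995 TPM, Col5a2 at 83.5 and 133 TPM, and Mylk, myosin light chain kinase, at 13.96 and 8.09 TPM. Against this list the 6 genes above the filter had a lower median, −0.22, and the difference between the lists was not tested.

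**Figure D4:**
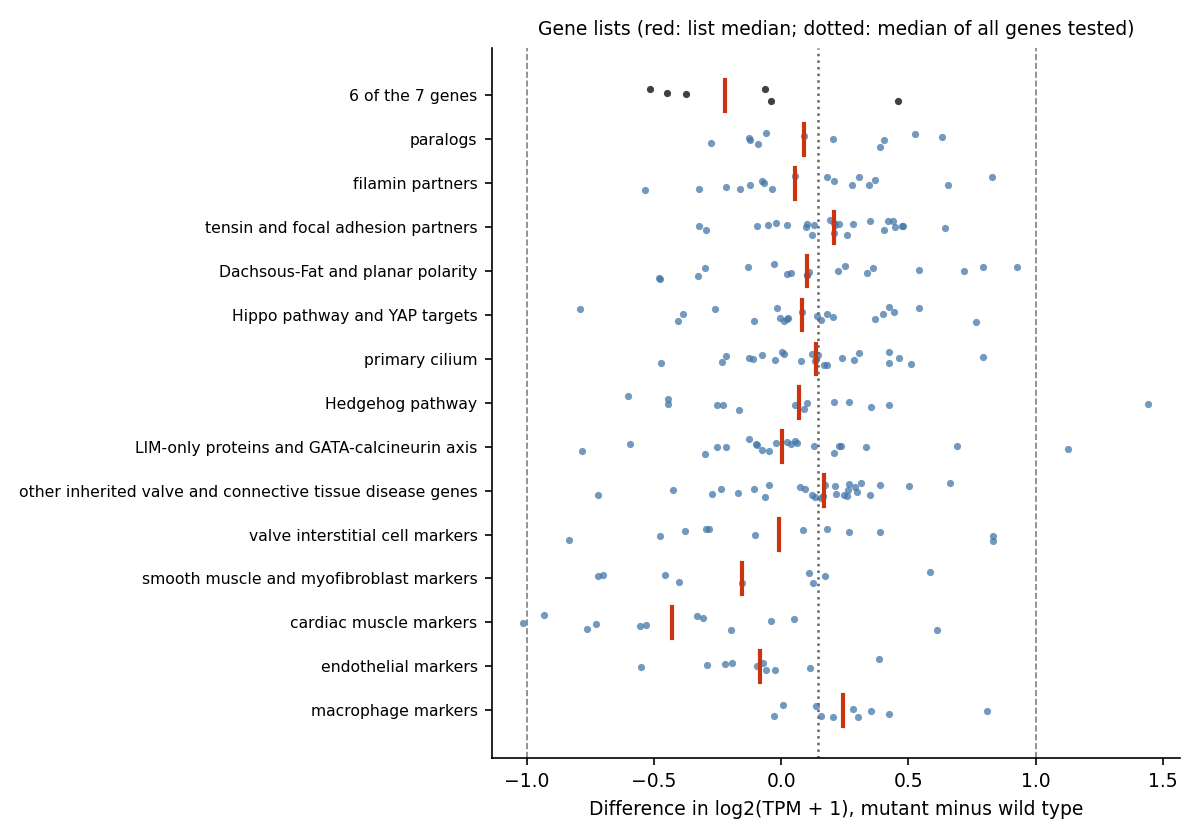
Mutant-minus-wild-type difference of log2(TPM + 1) of each gene above the abundance filter (points), by gene list, with the list median in red, the median of all tested genes at 0.14 as a dotted line and 2-fold as dashed lines. The 6 genes run from −0.52 to 0.46, and Gli1, Tes and the cardiac muscle gene Myl2 are the points past 2-fold in the lists drawn. The Y-linked genes and 4 marker lists are not drawn. Those marker lists hold further genes past 2-fold: lymphatic endothelial 3, monocyte and neutrophil 7, T cell 4, red blood cell and platelet 4.

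Markers of cell types that express these genes are set beside them. Smooth muscle and myofibroblast markers, whose cells are rich in filamin A and tensin 1, had 4 of 9 higher and 5 lower, with a median of −0.16, a summed level of 247 and 254 TPM and no member listed at 0. Acta2, smooth muscle actin, was at 89.9 and 102 TPM, Tagln at 32.5 and 49.2 TPM and Smtn at 47.6 and 35.7 TPM. Endothelial markers had 2 of 10 higher and 8 lower, with a median of −0.08 and a summed level of 1164 and 1130.2 TPM. Pecam1 was at 223 and 241 TPM, Eng at 289 and 275 TPM, Kdr at 18.5 and 12.3 TPM and Emcn at 109 and 143 TPM. Lymphatic endothelial markers had 1 of 7 higher and 6 lower, 3 of them at least 2-fold, with a median of −0.27. They summed to 373 and 213 TPM, of which Ccl21a alone took 244 and 94.3 TPM. Among valve interstitial cell markers, Postn was at 1269 and 2263 TPM and Msx1, a valve transcription factor gene, at 27.1 and 14.8 TPM. The part of these cells in the values of the 7 genes was not tested.

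With 2 libraries a gene's pattern is a single difference, which many genes share, so no gene is named as most alike. Within 0.05 of the Flna difference lay 1069 other tested genes, within 0.05 of that of Lmcd1 424, of Dchs1 557 and of Fat4 313. For Tns1 and Dzip1, near the middle of the distribution, these numbers were 1682 and 1657.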

How the data were processed

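RNA was pooled from 8 mitral valves per genotype, amplified with the Ovation RNAseq v2 system and made into Nextera XT libraries, per the labels' protocols. Trimmomatic, HISAT2, kallisto and the mm10 build are named in the submitters' processing notes. Their versions and roles, the annotation and the summing of transcripts to genes were not given in the sources used here. Per the file headers, the deposited values are TPM, 1 per gene symbol and library, and the columns sum to 999964 and 999945. TPM keeps no depth, so no interval was computed, and amplified reads are not independent molecules.

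The wild-type and mutant columns were matched to samples by genotype. Differences used a pseudocount of 1 and genes averaging at least 1 TPM; this scale understates differences of low genes. No test was run. The 7 genes and the 19 other lists were chosen with earlier results of these data known. Lists are described by counts and medians. Named genes were the 7, their paralogs, Fbn1, Y-linked genes and, per list, the 2 most abundant and the 2 with the largest difference among those averaging at least 5 TPM. Not all genes under this rule are reported here, and genes outside it are marked. The calculation was run on simulated TPM with known folds and no noise, with expected values from the same formula. That checks the arithmetic only, not how well differences are measured. Coordinates and exons are from GENCODE M21 (mm10). Alternatives were other pseudocounts, filters and scalings. Python 3.11.15, numpy 2.4.6, pandas 2.3.3 and matplotlib 3.10.9 were used.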

Additional observations from a re-analysis of the deposited data

How the results depend on the processing

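The 6 genes above the filter kept their signs under all 8 alternatives, and none reached 2-fold. For the negative differences this is no test. Another pseudocount or filter cannot turn a sign, and every scaling tried lowered the values of these genes. Only the sign of Flna could have turned. Flna ran from 0.35 to 0.46, Dchs1 from −0.52 to −0.31, Fat4 from −0.66 to −0.45, Lmcd1 from −0.57 to −0.43, Dzip1 from −0.21 to −0.05 and Tns1 from −0.15 to −0.04. Centring on the median of genes averaging at least 10 TPM gave 0.35 for Flna, −0.49 for Dchs1, −0.63 for Fat4, −0.17 for Dzip1, −0.15 for Tns1 and −0.56 for Lmcd1, and an all-gene median of 0.032. Quantile normalization gave −0.52 for Dchs1, −0.66 for Fat4, −0.21 for Dzip1 and −0.57 for Lmcd1, and an all-gene median of −0.014. Without a filter that median was 0. Centring subtracts 1 common value from every gene, by construction, whereas quantile normalization moves genes by amounts that depend on their rank.

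The background of 818 higher and 293 lower genes became 1264 and 464 with a pseudocount of 0.1, 209 and 87 with one of 5, 360 and 103 at a mean TPM of at least 5, and 540 and 462 under quantile normalization. Of the genes called, 73.6% were higher in the main setting, 64.4% after centring and 53.9% under quantile normalization. It was 499 higher without mitochondrial, globin, ribosomal protein, Gm-numbered and Rik genes. Among protein-coding genes alone, an alternative chosen after seeing the data, it was 397 and 136. Median differences of 7 lists changed sign under at least 1 alternative, all from values between 0 and 0.14. The limit of all of this is 1 library per genotype. No paired analysis was possible because each genotype has 1 library.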
